A study of Mus musculus with 50 samples.

Results

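The interferon-stimulated genes described here are 40 genes that cells switch on when interferon, a secreted warning signal of infection, binds its receptors. They were chosen by name as a list of interferon-response genes and not by a rule on their values, though with earlier results of these data known. They were matched to the deposited table through the gene symbols of GENCODE M21. All 40 were found among the 12185 genes of the table, and all 40 passed the filter on low values, a mean of at least 1, which left 11436 genes for the tests. The data are liver transcriptomes of mice from a backcross in which chromosomes 4 and 6 segregate between the A/J and C57BL/6J strains while the rest of the genome is C57BL/6J. Per the study's methods the mice were N2 offspring, 5 weeks old and fasted overnight, and each carried on both chromosomes 1 C57BL/6J homolog and 1 recombinant homolog, whereas the labels call them adult F2 males. The methods describe scans with and without sex as a covariate and do not give the sex of the sequenced mice. The 50 libraries form a single group with no treatment, infection or control arm, and genotypes were not used here, so the comparisons are between libraries and not between genotype classes. The libraries number 1 more than the mice given for these transcriptomes, and which library is the additional one is not given in the sources used here.

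Type I and type II interferons act through receptors that activate the kinases JAK1, TYK2 and JAK2. These phosphorylate STAT proteins such as STAT2, which joins IRF9 in the complex ISGF3, and ISGF3 binds a DNA element called ISRE in front of many of these genes. A different element, GAS, is best known from the response to interferon gamma. IRF7, itself an interferon-stimulated gene, amplifies type I interferon, and IRF1 is a transcription factor closely tied to interferon gamma. Hepatocytes, Kupffer cells (the resident macrophages of the liver), endothelial cells and lymphocytes all express such genes. In bulk tissue fewer cells of a type and less RNA per cell cannot be told apart.

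Each value is a normalized CPM, the share of a library's reads that fell on a gene, after the authors adjusted the library sizes to each other. The counted reads of a library numbered 11965594 to 29976557 (median 13620584), and 1 read was worth 0.0317 to 0.0864 normalized CPM. The lowest read count of any of the 40 genes in any library was 10, so none was near the floor of 3 reads (0.0951 to 0.259 normalized CPM). Such a floor speaks to counting error alone. The library titles carry 48 animal numbers, because 2 numbers stand on 2 libraries each, one on libraries 8 and 10 and the other on libraries 22 and 55, and whether these are separate mice is not given in the sources used here. The libraries sharing a number did not resemble each other equally in these genes. Averaged over the 40 genes as standard deviations from each gene's mean, libraries 8 and 10 stood at 0.78 and 1.06, whereas library 22 stood at -1.47, the lowest of all 50, and library 55 at 0.18. Results are therefore also given without these 4 libraries where that moves them. Libraries numbered 1 to 30 (n = 28) and 31 to 59 (n = 22) are compared because the library number could mark a batch, and nothing in the labels says that it does. The animal number could do so as well and is fitted separately below. Since the libraries form 1 group, each p-value sets a slope or a correlation against the spread between these libraries. It treats the 50 libraries as separate mice, which is not known for the 4 that share animal numbers. The defining hepatocyte genes were high in all 50 libraries, with Alb, the gene of serum albumin, between 57040 and 94538 normalized CPM.

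The promoters of these genes were searched for the ISRE letters (GAAA, then any 2 bases, then GAAA) and the GAS letters TTCNNNGAA (N is any base) on both strands of the 250 bases before to 50 after each RefSeq transcription start (GRCm38.p6). RefSeq promoters were at hand for 32 of the 40 genes, and 16 of these 32 (50%) held at least 1 ISRE match, against 3.44% of all 32851 promoters and 3.99% of the 27025 genes these belong to. A GAS match was found for 9 of 32 (28.1%), against 8.30% of all promoters and 9.55% of genes, and 6 genes held both (Bst2, Eif2ak2, Gbp7, Igtp, Irgm2 and Oas1a). The ISRE was present for Isg15, Ifit1, Ifit3, Oas1a, Stat2, Ddx58, Ifih1, Eif2ak2, Igtp, Irgm1, Irgm2, Gbp2, Gbp3, Gbp7, Rsad2 and Bst2. A gene with several starts counts as holding the motif if any of its promoters does. A match is a description of the letters and not a measured binding site. Given here, 5′ to 3′ on the strand of the gene, are the 250 bases before the start of the 6 genes with an ISRE match and the smallest adjusted p in the fit on Irf7 described further on, with the bases of the ISRE matches in capitals. In Stat2 the match lies on the other strand and reads as its reverse complement.
Isg15 (chr4:156200819-156201068, minus strand): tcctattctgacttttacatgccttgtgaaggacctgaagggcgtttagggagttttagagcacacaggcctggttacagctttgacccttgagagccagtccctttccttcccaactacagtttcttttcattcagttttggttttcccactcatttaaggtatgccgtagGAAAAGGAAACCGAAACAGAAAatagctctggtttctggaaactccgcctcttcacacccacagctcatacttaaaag
Igtp (chr11:58199306-58199555, plus strand): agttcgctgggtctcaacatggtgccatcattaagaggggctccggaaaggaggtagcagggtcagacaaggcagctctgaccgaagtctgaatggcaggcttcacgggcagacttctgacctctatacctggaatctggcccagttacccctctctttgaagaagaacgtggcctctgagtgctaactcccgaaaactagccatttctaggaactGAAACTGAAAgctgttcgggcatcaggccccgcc
Bst2 (chr8:71537473-71537722, minus strand): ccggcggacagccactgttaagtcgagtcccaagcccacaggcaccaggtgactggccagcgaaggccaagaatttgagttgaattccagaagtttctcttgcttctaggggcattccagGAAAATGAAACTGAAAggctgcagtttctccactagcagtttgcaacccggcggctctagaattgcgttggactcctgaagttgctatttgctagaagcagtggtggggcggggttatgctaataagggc
Irgm1 (chr11:48871421-48871670, minus strand): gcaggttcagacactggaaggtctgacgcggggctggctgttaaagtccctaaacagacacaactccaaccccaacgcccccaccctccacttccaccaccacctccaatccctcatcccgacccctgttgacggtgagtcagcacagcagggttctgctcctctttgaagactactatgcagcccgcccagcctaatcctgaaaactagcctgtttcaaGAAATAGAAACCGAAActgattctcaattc
Stat2 (chr10:128270248-128270497, plus strand): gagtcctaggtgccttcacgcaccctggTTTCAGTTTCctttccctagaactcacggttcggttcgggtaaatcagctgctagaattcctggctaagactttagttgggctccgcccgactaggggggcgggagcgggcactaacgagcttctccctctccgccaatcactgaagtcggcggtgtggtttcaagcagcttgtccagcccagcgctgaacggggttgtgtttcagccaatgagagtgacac
Oas1a (chr5:120907526-120907775, minus strand): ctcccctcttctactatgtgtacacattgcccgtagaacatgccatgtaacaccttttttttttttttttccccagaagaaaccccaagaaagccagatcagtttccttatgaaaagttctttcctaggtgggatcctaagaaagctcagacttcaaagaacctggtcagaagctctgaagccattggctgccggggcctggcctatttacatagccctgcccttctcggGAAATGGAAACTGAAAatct
In Isg15 the 3 matches overlap, and the nearest begins at position -66 relative to the start. Bst2, Irgm1 and Oas1a each hold 2 overlapping matches, and in Oas1a the nearest begins at -14. In Stat2 the single match begins at -222, the farthest of the 6.

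The 4 regulators were all well expressed. Irf7 ran from 14.3 in library 15 through a median of 25.5 to 36.996 normalized CPM in library 9, with a mean of 25.4 ± 6.04 (SD, n = 50). Irf9, the DNA-binding subunit of ISGF3, ran from 14.3 through 23.1 to 33.3, with its lowest value in the same library as Irf7 and its highest in library 31. Stat2, which joins Irf9 in that complex, ran from 23.04 through 31.05 to 46.4. Libraries 8 and 10, which carry the same animal number, were both high for Stat2 at 43.5 and 46.4. Irf1 ran from 10.2 through 15.7 to 27.5 and had its extremes in other libraries, 28 and 21.

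Of the ISG15 system, Isg15 encodes a ubiquitin-like protein that is attached to other proteins, Herc6 a ligase that attaches it and Usp18 the protease that removes it and also damps the type I receptor. Isg15 had a fold range of 5.23 between its lowest and highest library, from 2.02 in library 22 through 5.13 to 10.5 normalized CPM in library 3. Usp18 ran from 6.19 through 10.98 to 17.9 and Herc6 from 2.44 through 3.76 to 5.78. These 3 genes lie on the segregating chromosomes (Isg15 on chromosome 4, Usp18 and Herc6 on chromosome 6), as do Ddx58 on chromosome 4 and Samd9l on chromosome 6. The other 35 lie elsewhere in the genome.

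The IFIT proteins bind foreign RNA at its 5′ end. Ifit1 ran from 4.28 through 7.80 to 15.4 normalized CPM, Ifit3 from 3.75 through 8.65 to 14.1, and Ifit2 from 1.77 through 3.18 to 4.597. Ifit1 and Ifit3 thus spanned a wider fold range than Ifit2, which was also the lowest of them per length, at 0.820 against 3.16 and 4.93 normalized CPM per kb of exon. Ifit3 shares 61.8% of its 31-base stretches with its neighbour Ifit3b, so reads of these neighbours cannot be fully told apart.

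The OAS family makes short oligoadenylates that activate an antiviral ribonuclease, while the OAS-like proteins have other roles, and Oasl1 is known to hold back translation of Irf7. Oasl1 ran from 4.08 through 6.49 to 15.7 and had the largest coefficient of variation of the 40 genes, 37.99%. Oasl2 ran from 0.819 through 3.29 to 5.35, the widest fold range of the 40 at 6.54, and Oas1a from 0.878 through 1.88 to 2.93. The low Oas1a level left 48.97% of its variance to counting error, the highest share of the 40, and 68.8% of its 31-base stretches are shared with Oas1g or other genes.

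Among the sensors, Ddx58 encodes RIG-I, Ifih1 MDA5 and Dhx58 LGP2, which recognise viral double-stranded RNA in the cytosol. Ifih1 (15.5, 21.5 and 28.3 for the lowest, median and highest library) and Ddx58 (13.2, 19.02 and 28.5) varied within a narrow range, and both were highest in library 31. Dhx58 spanned a wider fold range, at 4.03, 8.002 and 12.3. Eif2ak2, the kinase PKR that stops translation, ran from 7.88 through 13.2 to 18.8. Zbp1, a sensor of Z-form nucleic acids, ran from 1.38 through 3.34 to 6.12.

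The interferon-inducible GTPases attack the vacuoles of intracellular parasites and bacteria. Iigp1 had by far the most reads of the 40 genes, from 79.5 in library 22 through 191.03 to 265.1 normalized CPM in library 31. Irgm1 (25.9, 39.4 and 62.2), Irgm2 (20.6, 33.2 and 65.4) and Igtp (10.4, 18.1 and 33.3), which hold the effector GTPases inactive on the cell's own membranes, all had their highest value in library 31 as well. Igtp and Irgm2 are neighbours that overlap on the same strand and share sequence (15.9% of the 31-base stretches of Igtp), so part of their likeness may be shared reads, which was not tested. Ifi47 had a median of 9.35, and the guanylate-binding proteins Gbp2, Gbp3 and Gbp7 had medians of 3.75, 3.68 and 3.99.

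Parp9 and Dtx3l, which act as a complex, and Parp14, another ADP-ribosyltransferase, lie side by side on chromosome 16. Parp9 ran from 25.5 through 37.7 to 47.7 and had the smallest coefficient of variation of the 40, 12.03%. Dtx3l (20.7, 29.2 and 38.6) and Parp14 (13.7, 22.4 and 30.9) had their lowest values in libraries 21 and 15. Parp9 and Dtx3l overlap on opposite strands, which the stranded library kit separates only if the counting used the strand, and that setting is not given in the sources used here.

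Of the other effectors, Bst2 (tetherin, which holds budding viruses at the cell surface) ran from 51.3 through 66.8 to 90.4 normalized CPM, and Ifi27, a small mitochondrial protein, from 17.6 through 35.3 to 55.1. Per kb of exon the highest means were those of Bst2 (75.7 ± 10.9 normalized CPM per kb, SD, n = 50), Iigp1 (32.7 ± 6.76), Ifi27 (23.9 ± 6.09) and Lgals3bp (22.8 ± 2.92), a secreted glycoprotein. Ifi27 and Lgals3bp lie within 1 SD of each other in that order. Ifi44 was lowest at 0.361 ± 0.116 per kb, next to Herc6 at 0.411 ± 0.0824, and these also overlap within their spread. Rsad2 (viperin, which makes a chain-terminating nucleotide) and its neighbour Cmpk2, a nucleotide kinase, had medians of 14.01 and 4.998 normalized CPM. The medians of Tap1 (the peptide transporter of class I antigen presentation), Ifi35, Samd9l, Rtp4 and Xaf1 were 14.5, 13.3, 8.59, 6.81 and 3.12.

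**Figure D1:**
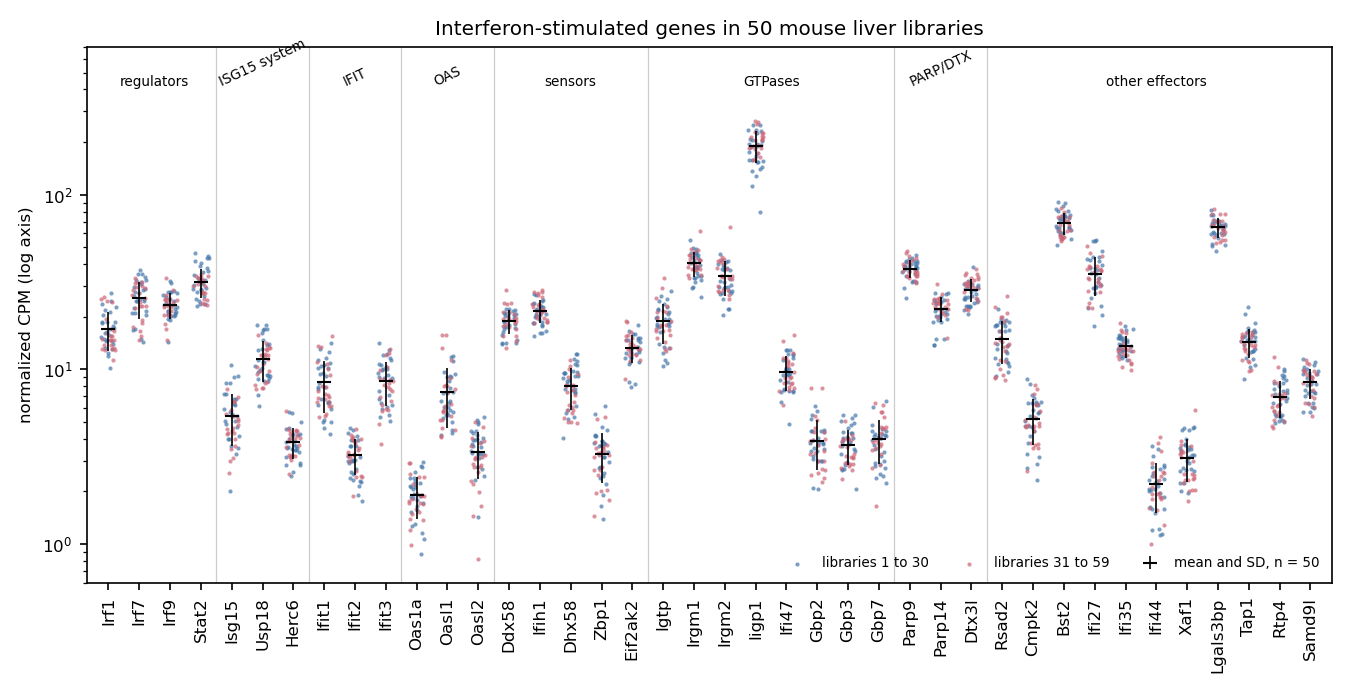
Level of each of the 40 genes in the 50 libraries, in normalized CPM on a log axis, grouped by role. Points are libraries, coloured by library number, and bars are the mean and SD (n = 50). The mean is 190.7 for Iigp1 and 1.91 for Oas1a, the extremes of the 40 before division by length, and the points of both sets of libraries overlap for each gene.

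These genes varied more between livers than most genes of like level. The median coefficient of variation of the 40 was 23.5%, against 17.2% over the table. Set beside the 200 genes nearest in mean, 38 of the 40 lay above the median of their neighbours, and 12 lay above the 90th percentile, with a median percentile of 80.25. The 2 that did not were Herc6 and Ifi35. Oasl1, Ifit1, Ifi27, Isg15 and Rsad2 had the highest percentiles, between 94 and 95.5. Counting error took between 0.834% (Iigp1) and 48.97% (Oas1a) of the variance of a gene, with a median of 12.3%.

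The libraries differed in these genes as a whole. In library 31, 24 of the 40 genes were among the 5 highest of the 50 libraries, and in library 22, 23 of the 40 were among the 5 lowest. Ifit1, for example, was at 13.5 normalized CPM in library 31 and 15.4 in library 46, against 5.11 in library 22 and 4.98 in library 15. The other libraries with high means were 46, 10, 3, 23 and 8, and those with low means 30, 47, 15 and 21, so both sets of library numbers held high and low livers. Irf1 and Bst2 followed this order poorly. Bst2 was lower in library 31 (55.8) than in library 22 (60.3). Irf1 was high in library 31 (25.1) and low in library 22 (13.2), as in the order of the other genes, but was also low in library 46 (13.8) and had its highest value in library 21, one of the low libraries.

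**Figure D2:**
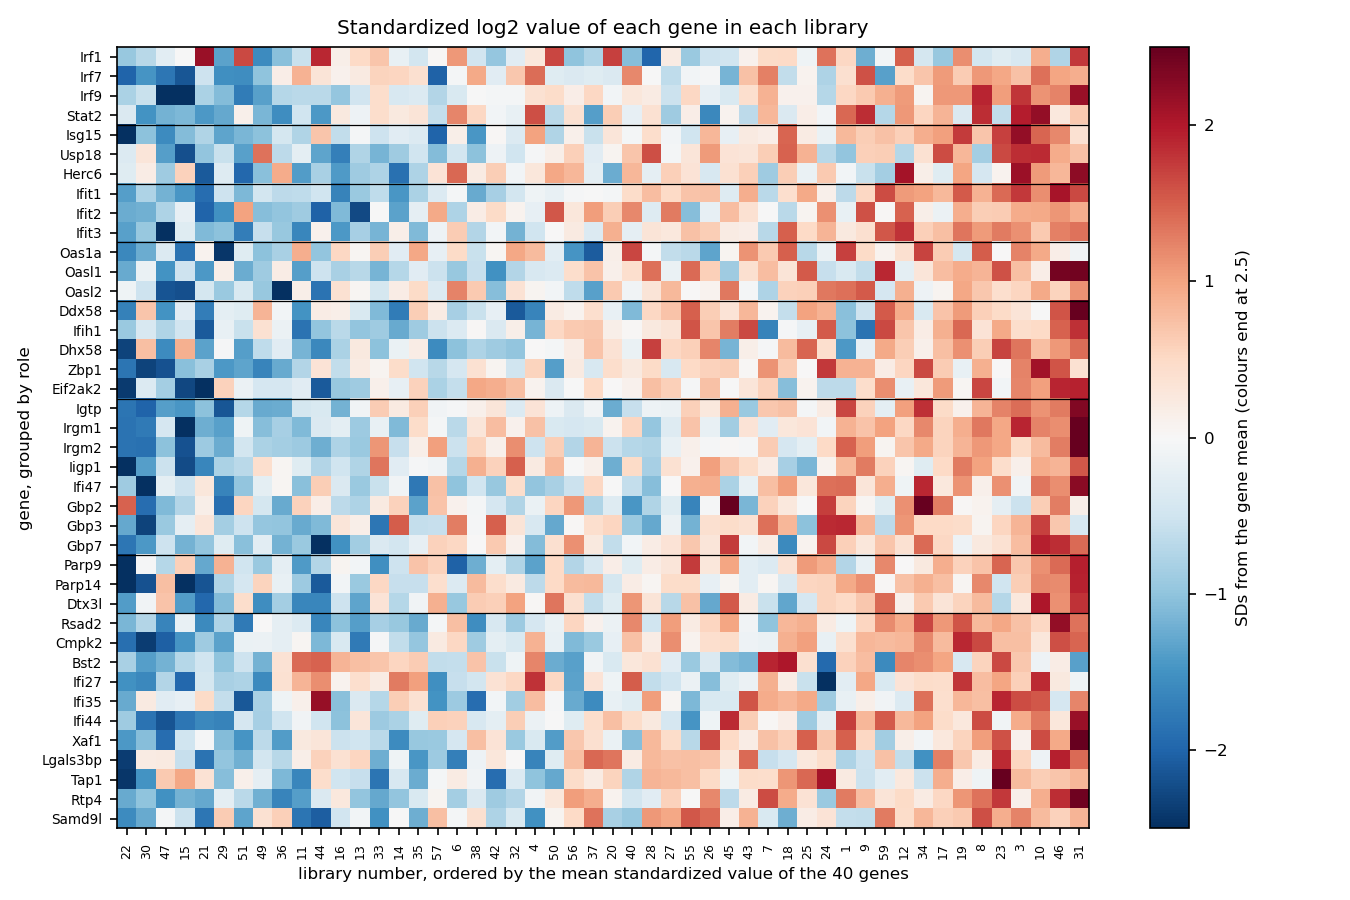
Standardized log2 value of each of the 40 genes (rows, grouped by role) in each library (columns, ordered by the mean over the 40 genes), as standard deviations from the gene's mean. Libraries 22, 30, 47 and 15 at the left are low in most rows and libraries 31, 46, 10 and 3 at the right high in most, while the rows of Irf1, Gbp2 and Bst2 do not follow the order.

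The 40 genes moved together across livers. Pearson's r of log2(value + 0.5) over the 50 libraries had a median of 0.40 over the 780 pairs of these genes, and 31.8% of these pairs reached an r of at least 0.5, against 2.17 percent of all 65385330 pairs of fitted genes. Pairs share libraries and genes, so they are not independent, and r is given as a description. The highest r was between Ifit1 and Rsad2 (0.84), followed by Ifit1 and Ifit3 (0.81), Igtp and Irgm2 (0.81), Oasl1 and Dhx58 (0.80) and Ifit1 and Oasl1 (0.80). Most of these pairs lie on different chromosomes. An r below 0 was found for 50 of the 780 pairs, with the lowest between Ifih1 and Bst2 (-0.42). Leaving out libraries 22 and 31, the lowest and the highest, left 26.2% of the pairs at 0.5 or above, and leaving out the 4 libraries with shared animal numbers left 27.4%. The share was 44.2% among libraries 1 to 30 alone and 28.97% among libraries 31 to 59 alone. When each library was rescaled to the same sum in place of the authors' scaling it was 42.6%. The share over all pairs of fitted genes was computed only for the 50 libraries with the authors' scaling. The shares in these other settings therefore have no like share to be read against, and their differences are not a result about these genes.

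Measured against the mean of the other 39 genes, 30 of the 40 had an r of at least 0.5. Ifit1 was highest (0.85), followed by Irgm1 (0.83), Irf9 (0.83), Igtp (0.82) and Cmpk2 (0.80). Irf1 was lowest at 0.06, below Bst2 (0.16), Gbp2 (0.27), Ifi27 (0.37) and Ifi35 (0.40). Ifi27 and Bst2 were at the same time among the genes closest to Irf7 (r of 0.77 and 0.60). By role, the median r was 0.55 within the 3 IFIT genes, 0.48 within the 8 GTPases, 0.47 within the 5 sensors and 0.17 within the 3 OAS genes.

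**Figure D3:**
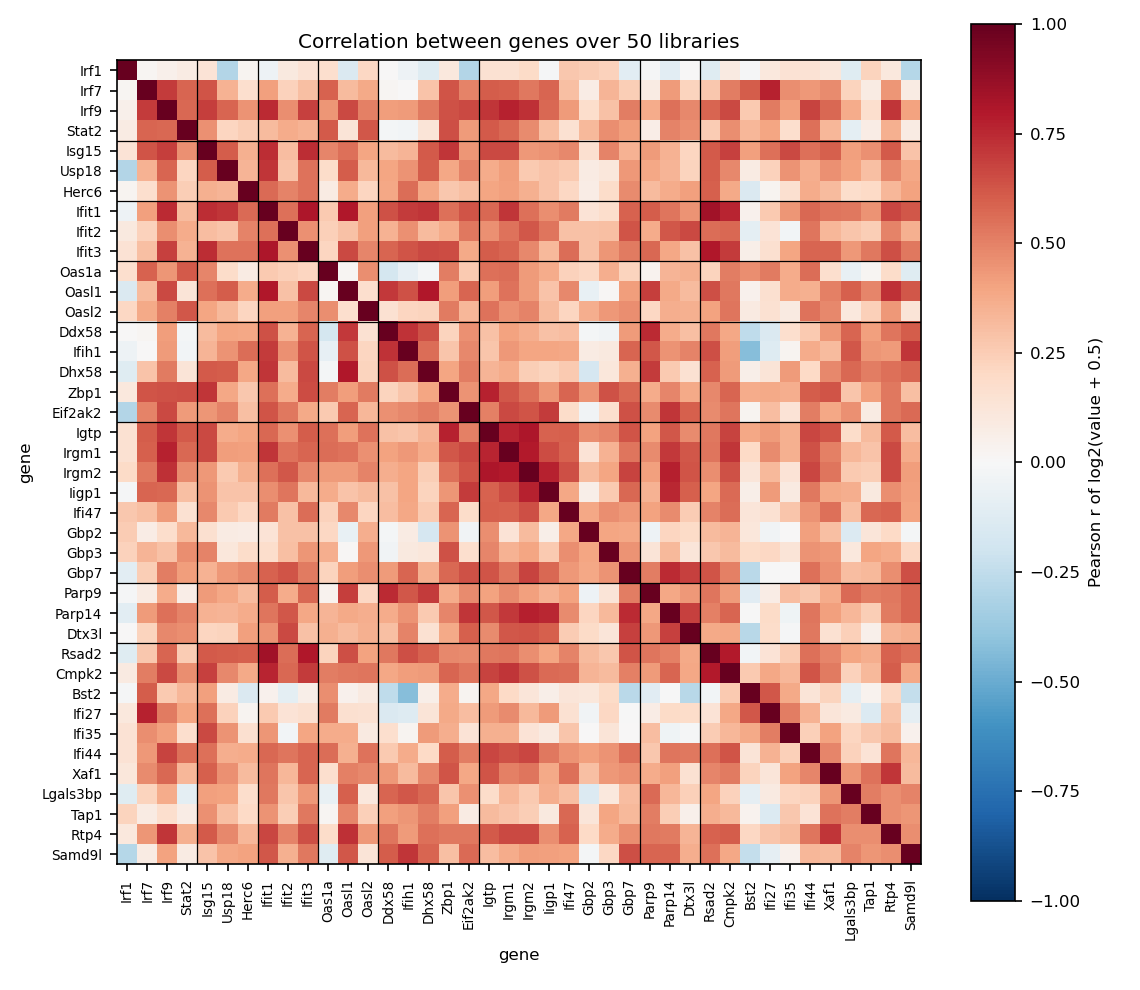
Pearson's r of log2(value + 0.5) over 50 libraries for each pair of the 40 genes, ordered by role. Most of the matrix is above 0 (50 of 780 pairs are below), with blocks of high r among the IFIT genes with Oasl1, Dhx58, Rsad2 and Cmpk2 and among the GTPases Igtp, Irgm1, Irgm2 and Iigp1, while the rows of Irf1 and Bst2 are mostly pale or below 0, apart from Bst2 with Irf7 and Ifi27.

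For 21 of the 40 the closest of all other genes was another gene of the list, and for 5 more it was a gene of the wider interferon pathway list (Apol9b for Irf7, Ifit3b for Herc6, Sp100 for Oasl2, Cxcl9 for Gbp2, Ddx60 for Samd9l). Of the remaining 14, Parp14, Dtx3l and Eif2ak2 were closest to Rnf213, Ddx58 and Ifih1 to Parp12, and Tap1 to Parp10, while Irf1 was closest to Cebpa (r = 0.82), a hepatocyte transcription factor. The other 7 were closest to A330023F24Rik (Stat2), Impa1 (Oas1a), Acbd5 (Iigp1), Zfp395 (Ifi47), Selenow (Bst2), Mcm10 (Ifi27) and Daglb (Lgals3bp). The 5 genes on the segregating chromosomes all had their closest partner on another chromosome, as did most of the other members. For these 5 the partners were Ifit3 for Isg15, Ifit1 for Usp18, Ifit3b for Herc6, Parp12 for Ddx58 and Ddx60 for Samd9l. Of these partners Parp12 lies on chromosome 6, the other segregating chromosome, and the rest lie on chromosomes that do not segregate.

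Over the 11396 genes outside the list, 65 had an r of at least 0.5 with the mean standardized value of the 40. Among the closest were Ddx60 (0.72), Gm37691 (0.72), Trim12c (0.70), Apol9b (0.70), Trim34a (0.68), Adar (0.68), Ifit3b (0.67), Zc3hav1 (0.67) and Hectd2os (0.67). Ddx60, Apol9b, Adar and Ifit3b are on the wider interferon list.

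Irf7 is the member known for amplifying the type I response, so each gene was fitted on the log2 level of Irf7 over the 50 libraries (limma, 2-sided, Benjamini-Hochberg adjustment over all 11435 genes, threshold 0.05). Of the other 39 genes of the list 20 rose with Irf7, where 8.56 percent of all genes rose, and none fell, where 7.46 percent of all genes fell. All 39 slopes were above 0, with a median of 0.34 log2 units per log2 unit of Irf7, against 0.0031 over all genes. With edgeR on whole reads, and with library sums rescaled to be equal, the same 20 rose. The number of slopes above 0 was not the same in every setting. It was 33 of 39 without the 4 libraries that share animal numbers, 34 without libraries 22 and 31 and also in libraries 31 to 59 alone, 37 with counted reads as a covariate and in libraries 1 to 30 alone, and 38 with edgeR, with animal number as a covariate and without the 2 libraries farthest from the median of Irf7. Ifi27 rose most steeply, by 0.79 per log2 unit (SE 0.0931, adjusted p = 3.75e-08). Irf9 rose by 0.47 (SE 0.0699, adjusted p = 5.22e-06) and Isg15 by 0.77 (SE 0.134, adjusted p = 6.68e-05). Zbp1 rose by 0.72, Igtp by 0.61 and Bst2 by 0.34, with adjusted p of 7.06e-05, 0.000159 and 0.000203. Stat2 rose by 0.42 (SE 0.0841, adjusted p = 0.000373). The other 13 that rose were Irgm1, Iigp1, Oas1a, Irgm2, Cmpk2, Eif2ak2, Xaf1, Ifi35, Rtp4, Ifi44, Parp14, Ifit1 and Oasl2.

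Irf1 had a slope of 0.019 (SE 0.129, adjusted p = 0.942), and its direction turned in some of the alternative settings. The sensors Ddx58 (0.012) and Ifih1 (0.0023) had slopes close to 0 as well, although both had an r over 0.5 with the mean of the other members. Usp18, Herc6, Ifit2, Ifit3, Oasl1, Dhx58, Ifi47, Gbp2, Gbp3, Gbp7, Parp9, Dtx3l, Rsad2, Lgals3bp, Tap1 and Samd9l also did not pass the threshold. Of the members with an ISRE match in the promoter 9 of 16 rose with Irf7, and of those with a promoter but no match 6 of 15, Irf7 itself left out.

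**Figure D4:**
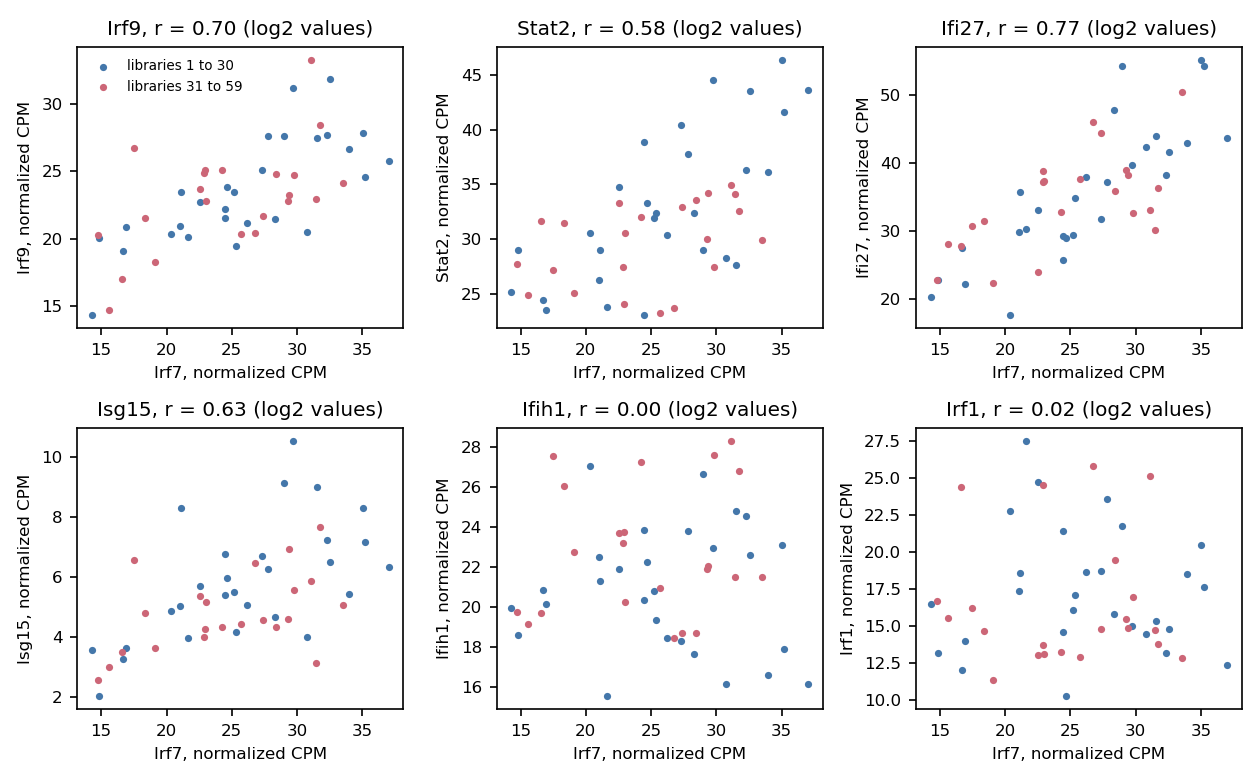
Level of 6 members against the level of Irf7 in each library, in normalized CPM on linear axes, coloured by library number. Irf9, Stat2, Ifi27 and Isg15 rise with Irf7 (r of the log2 values 0.70, 0.58, 0.77 and 0.63), whereas r is 0.0038 for Ifih1 and 0.021 for Irf1.

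Between Irf7 and Irf9, r was 0.70 and Spearman's rho 0.69 (n = 50, permutation p = 1e-05 for both, the smallest that the permutations can give). Without the 2 libraries farthest from the median of Irf7 r was 0.66, and it was 0.76 among libraries 1 to 30 and 0.60 among libraries 31 to 59. Between Irf7 and Stat2 r was 0.58 (0.69 and 0.37 within the sets), and between Irf7 and Irf1 it was 0.021 with a rho of -0.018 (permutation p = 0.887 and 0.902). These are among 15 relations computed, and adjusted over the 15 the p of r was 3e-05 for Irf9, 3.75e-05 for Stat2 and 0.887 for Irf1. Apart from the regulators, the 15 were picked for their small adjusted p in the fits on Irf7 and on animal number. Those fits used the same libraries, so these p-values describe the relations and are not separate support for them.

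The number of members that rose depended on which libraries were used. With libraries 1 to 30 alone 19 rose, where 833 of all 11512 genes rose. With libraries 31 to 59 alone 0 rose (limma, lowest adjusted p 0.0954, 12 members at an unadjusted p under 0.05), where 7 genes rose and 7 fell in the whole table. In that set 34 of 39 slopes were above 0, with a median of 0.26. Without the 4 libraries that share animal numbers 15 rose, where 833 of all 11427 genes rose. Without libraries 22 and 31 18 rose, where 974 of all 11438 genes rose. With animal number as a covariate 19 rose, 15 of them the same genes, while the rising calls over all genes went from 979 to 325. Dhx58, Lgals3bp, Oasl1 and Usp18 were gained there and Ifi44, Irgm2, Oas1a, Oasl2 and Parp14 lost.

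**Figure D5:**
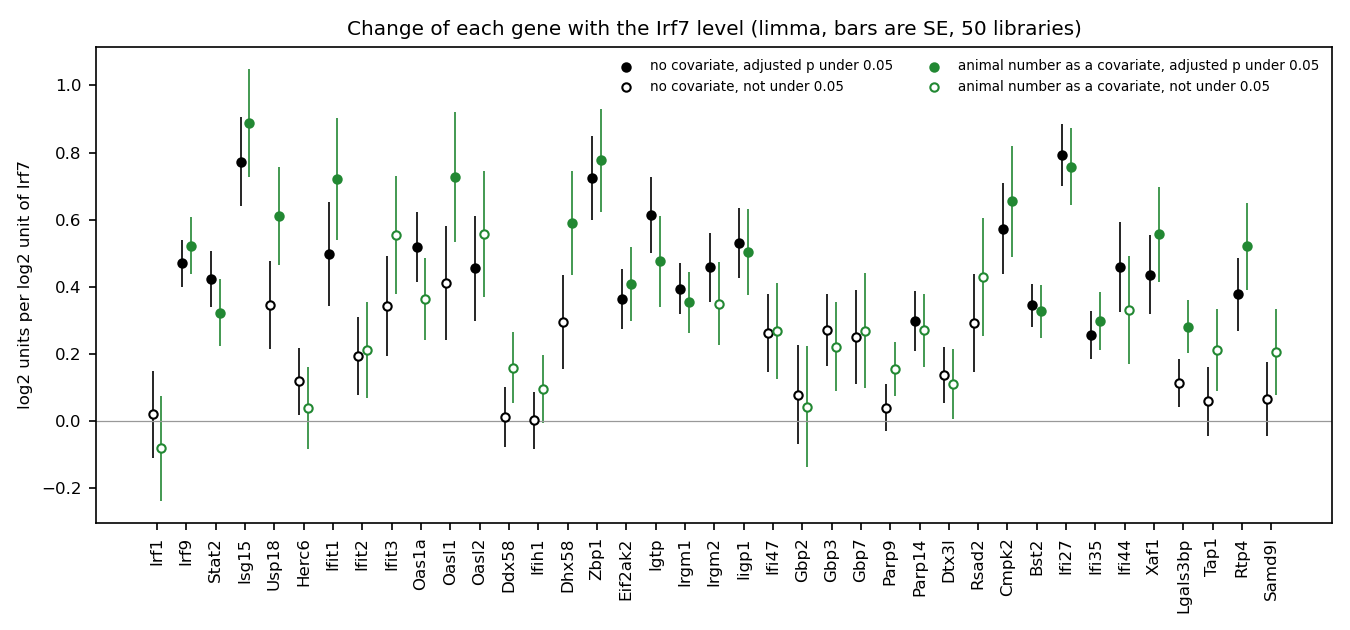
Slope of each of the other 39 genes on the log2 level of Irf7, in log2 units per log2 unit, with SE (limma, 50 libraries), without a covariate (black) and with animal number as a covariate (green). Filled points have an adjusted p under 0.05, 20 without and 19 with the covariate, and the steepest slopes are those of Ifi27, Isg15 and Zbp1.

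The wider pathway was read in the same fit. None of the 7 interferon genes listed (such as Ifnb1 and Ifng) was among the 12185 genes of the table, so none was analysed here. The receptor chains were present in every library, for example Ifnar1 at 29.2 ± 2.42 and Ifngr1 at 16.7 ± 2.03 normalized CPM (SD, n = 50), and 0 of the 5 analysed passed the threshold (limma, 1 at an unadjusted p under 0.05, Ifngr1). Of 8 signalling genes 2 rose, among them Tyk2 (slope 0.25, adjusted p = 0.0105). Of 12 genes of upstream sensing only Myd88, an adaptor of Toll-like receptors, rose (0.18, adjusted p = 0.0246). Of 45 further interferon-stimulated genes 16 rose and none fell, led by Apol9b (0.83, adjusted p = 2.49e-09), Apol9a (0.97), Ifitm3 (0.34) and Ube2l6 (0.47), the conjugating enzyme of ISG15. Apol9a and Apol9b are close copies, so their reads may be shared.

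Markers of other cell types were read beside these slopes. The 10 Kupffer cell markers were all present, with a summed level of 344 to 622 normalized CPM, none at 0 in any library, and 0 of 10 rose or fell with Irf7 (limma, 1 at an unadjusted p under 0.05, Marco). With their sum as a covariate the same 20 members rose, where 1012 of all 11435 genes rose. Irf7 itself had a slope of -0.013 (SE 0.269) on that sum, so this covariate could move the slopes on Irf7 little. Of the endothelial markers (summed level 147 to 225) Lyve1 (-0.82) and Pecam1 (-0.22) fell and Clec4g (0.25) rose. Of the hepatocyte genes Alb fell (-0.32) and Ttr rose (0.19), and of the 7 acute-phase genes Lcn2 (-1.29) and Hp (-0.31) fell. The part of these changes in the slopes of the members was not tested.

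Irf1, set beside Irf7 for its tie to interferon gamma, was fitted in the same way. With the level of Irf1, 0 of the other 39 members rose or fell (limma, 4 at an unadjusted p under 0.05, and 0 called and 3 unadjusted with edgeR), where 2.55 percent of all genes rose and 3.73 percent fell. Irf7 had a slope of 0.022 (SE 0.150, adjusted p = 0.946), Irf9 of 0.036 and Stat2 of 0.063. In the pathway lists Socs3, a feedback inhibitor of cytokine receptors, rose (1.24 per log2 unit of Irf1, SE 0.219, adjusted p = 0.000214), Irf3 rose (0.27, adjusted p = 0.00649) and Tbk1, the kinase that activates Irf3, fell (-0.22, adjusted p = 0.0256). None of the 45 further interferon-stimulated genes passed the threshold in that fit, with the smallest adjusted p for Nlrc5 (0.0530, slope -0.39) and Mx2 (0.0563, slope 0.38).

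Each title carries an animal number, and what the numbers follow (such as birth order) is not stated. With rising animal number 10 of the 40 members fell, where 6.75 percent of all genes fell, and none rose, where 7.48 percent rose. Irf7 fell by 0.40 log2 units per 100 numbers (SE 0.0811, adjusted p = 0.000775), with an r of -0.57 and a rho of -0.62 over the 50 libraries (permutation p = 2e-05 and 1e-05, and 3.75e-05 for r adjusted over the 15 relations). The r was -0.55 among libraries 1 to 30, -0.68 among libraries 31 to 59 and -0.56 without the 2 numbers farthest from the median. Oas1a (-0.34, adjusted p = 0.00205), Igtp (-0.36, adjusted p = 0.00367), Stat2 (-0.26, adjusted p = 0.00476), Ifi27 (-0.35, adjusted p = 0.00633) and Irgm2 (-0.27, adjusted p = 0.0119) fell as well, as did Irgm1, Ifi44, Bst2 and Iigp1. Irf9 (-0.14, adjusted p = 0.119) and Irf1 (-0.093, adjusted p = 0.537) did not pass the threshold, and for Irf9 r went from -0.30 to -0.23 without the 2 farthest numbers. The call of some of these genes rested on few libraries. Without the 2 libraries farthest from the median animal number 6 members fell (Irf7, Oas1a, Ifi27, Stat2, Bst2 and Igtp), and Ddx58 rose (0.17, adjusted p = 0.0432), while Irgm2 (adjusted p = 0.0813), Irgm1 (0.0957), Iigp1 (0.118) and Ifi44 (0.159) no longer passed the threshold. In the fit without the 2 farthest libraries 820 of all 11432 genes fell and 928 rose. Without the 4 libraries that share animal numbers 7 members fell, where 710 of all 11428 genes fell. The IFIT genes had slopes close to 0, which changed sign between settings (Ifit1 -0.011, Ifit3 0.041, Ifit2 -0.063). Within the libraries numbered 1 to 30, 6 members fell, where 594 of all 11513 genes fell. Within those numbered 31 to 59 0 members fell (limma, 5 at an unadjusted p under 0.05), where 15 genes rose and 11 fell in the whole table. Lcn2, Hp, Alb and Lyve1 rose and Hnf4a fell with animal number (slopes 0.85, 0.21, 0.26, 0.32 and -0.23), and 0 of the 10 Kupffer markers passed the threshold (limma, none at an unadjusted p under 0.05). Their part in the result was not tested.

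Between the sets of libraries, 1 member differed. Dtx3l was higher in the libraries numbered 31 to 59 (30.5 ± 4.12 normalized CPM, SD, n = 22) than in those numbered 1 to 30 (26.9 ± 3.95, n = 28), by 0.18 log2 units (SE 0.0569, adjusted p = 0.0254, limma), and the values of the sets overlap. Over all genes 7.30 percent were higher and 6.47 percent lower in the later set. With each library rescaled to the same sum no member was called (limma, 9 at an unadjusted p under 0.05). In that setting 433 of all 11441 genes were higher and 915 lower in the later set. The regulators Irf7 (-0.077), Irf9 (-0.029), Stat2 (-0.13) and Irf1 (-0.076) did not pass the threshold.

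The list was also read against the cell content of the samples and against another inflammatory program. With the summed level of the Kupffer markers 0 of the 40 members rose or fell (limma, 1 at an unadjusted p under 0.05, Tap1, and 0 called and 3 unadjusted with edgeR), where 1.22 percent of all genes rose and 0.114 percent fell. With the summed level of the lymphocyte markers, of which 5 of 15 were analysed here (together at 5.30 to 14.5 normalized CPM, with none at 0 in any library), 0 members rose or fell (limma, 7 at an unadjusted p under 0.05, and 0 called and 4 unadjusted with edgeR), where 1.10 percent of all genes rose and 1.24 percent fell. In these fits Irf7 had slopes of -0.013 (SE 0.269) and -0.12 (SE 0.149) log2 units per log2 unit of the sum. The slopes of Irf9 and Stat2 on the Kupffer sum were -0.31 and -0.021 and on the lymphocyte sum -0.025 and -0.071, and those of Irf1 were 0.091 and 0.26.

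With the summed level of 7 acute-phase genes, secreted by hepatocytes in inflammation (3938 to 9149 normalized CPM), 3 members fell, where 4.64 percent of all genes fell, and none rose, where 3.75 percent rose. Hp and Itih4 made up most of the sum, with means of 3687 and 1254 against a mean sum of 5467 normalized CPM. Saa1, Saa2, Lcn2 and Orm2 had means of 67.6, 14.5, 13.4 and 10.5, so the fit followed mainly Hp and Itih4. Stat2 fell by 0.55 log2 units per log2 unit of the sum (SE 0.147, adjusted p = 0.0176), Eif2ak2 by 0.48 (SE 0.153, adjusted p = 0.0395) and Irf7 by 0.63 (SE 0.207, adjusted p = 0.0448). Irf9 (-0.34, adjusted p = 0.134) and Irf1 (0.24, adjusted p = 0.482) did not pass the threshold. The 3 calls were not stable. No member was called without the 4 libraries that share animal numbers or within either set of libraries, 1 was called with edgeR and 5 with the library set as a covariate. Over all 11429 genes, 530 fell in the reported fit, 431 with edgeR and 819 with the library set as a covariate. Without the 4 libraries 266 of all 11421 genes fell. Calls were few over the whole table within the sets. There 4 of 11506 genes fell and 11 rose in libraries 1 to 30, and 78 of 11359 fell and 19 rose in libraries 31 to 59.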

How the data were processed

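Liver RNA was sequenced on an Illumina instrument as 50 stranded TruSeq mRNA libraries. Per the study's methods the authors trimmed the reads (the methods and the submitters' processing notes name different trimmers), used Hisat2 for alignment (GRCm38.p5) and HTSeq 0.11.1 for counting, dropped genes with low yield, and normalized with edgeR. The deposited values are a signal, namely CPM after edgeR adjusted the library sizes to each other. Divided by the value of 1 read, 100% of them came out whole within 0.01 of a read, the largest deviation being 0.000323 reads.

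From these, log2(value + 0.5) of genes with a mean of at least 1 was fitted with limma 3.58.1 in R 4.3.3 (trend, 2-sided, Benjamini-Hochberg over all genes, threshold 0.05) on library set, animal number, Irf7, Irf1 and the marker sums. edgeR 4.0.16 (quasi-likelihood) on the recovered reads was an alternative and called 20 members for Irf7. The limma fit was also run on simulated counts with known slopes. These were drawn independently for each gene with the same dispersion for all, so that run does not cover the correlation between the real genes. Correlations used 50 libraries. Lengths, overlaps and shared 31-base stretches came from GENCODE M21 and promoters from RefSeq. Scripts ran in Python 3.11.15 (scipy 1.17.1, numpy 2.4.6, pandas 2.3.3, matplotlib 3.10.9).

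All members were named, with values for up to 6 called members per direction with the smallest adjusted p and for Irf1, Irf7, Irf9 and Stat2 in each fit, up to 4 genes per pathway list, genes among the 10 closest non-members and each member's closest gene. The other marker genes were named after their values were seen. The members, lists and tests were chosen with earlier results of these data known. Genotypes were not used, and single-gene values of some genes are left out.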

Additional observations from a re-analysis of the deposited data

How the results depend on the processing

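Of 99 counts of called members or of member pairs recomputed under the alternatives, 88 stayed within 1.5 times the reported value and 11 did not. With library sums rescaled to be equal, 0 members were called between the library sets, 1 with the Kupffer sum and 1 with the lymphocyte sum. In that setting 433 of 11441 genes were higher and 915 lower in the later set of libraries. There 453 of 11431 genes rose with the Kupffer sum and 694 of 11438 with the lymphocyte sum. Within the libraries numbered 1 to 30, 6 were called for animal number and 0 for the acute-phase sum, and within those numbered 31 to 59, 0 for animal number, Irf7 or the acute-phase sum. These subsets hold 28 and 22 libraries, and where no member was called in them few genes of the whole table were. For the acute-phase sum, edgeR called 1, the fit without shared animal numbers 0 and the fit with the library set as a covariate 5. The cause of these changes was not tested. The fits within the sets, with the Kupffer sum or animal number as covariates, and without libraries 22 and 31 were chosen after seeing the data. For animal number, the fit without the 2 farthest libraries called 7 members, 6 falling and 1 rising, and that without shared animal numbers 7 falling.

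For the members with the smallest adjusted p in each fit and the 4 regulators, 483 slopes were recomputed, of which 427 kept their direction and side of the threshold, 32 kept their direction and were no longer past it, and 24 turned direction. Those 24 were slopes of regulators that were not called in the reported fit. Slopes of other members that were not called are outside this count and also turned, such as, on animal number, Ifit1 (0.028 without the 2 farthest libraries, 0.034 in libraries 31 to 59), Ifit2 (0.024 in libraries 31 to 59) and Ifit3 (-0.095 in libraries 1 to 30). The slope of Irf1 on Irf7 was -0.00029 with edgeR, -0.037 without shared animal numbers, -0.044 with counted reads as a covariate, -0.022 in libraries 31 to 59, -0.082 with animal number as a covariate and -0.051 without libraries 22 and 31. The slope of Irf7 on Irf1 was -0.0023 with edgeR, -0.039 without shared animal numbers, -0.051 with counted reads and -0.023 in libraries 31 to 59, and that of Irf9 on Irf1 was -0.0026 in libraries 1 to 30. On the Kupffer sum, Irf1 had -0.31 in libraries 31 to 59, Irf7 0.050 with rescaled sums, 0.023 without library 24, 0.28 without the 2 farthest libraries and 0.26 in libraries 1 to 30, and Stat2 0.21, 0.056 and 0.063 with rescaled sums, without the 2 farthest and in libraries 1 to 30. On the lymphocyte sum, Irf9 had 0.047 with rescaled sums, 0.0022 without the 2 farthest and 0.040 in libraries 31 to 59, and Stat2 0.037 with rescaled sums. On the acute-phase sum Irf1 had -0.043 in libraries 1 to 30. No paired analysis was possible because the libraries form a single group.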
